A study of Mus musculus with 6 samples.

Results

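The 38 genes described here encode the receptors, kinases, inhibitors and translation factors of the PI3K, mTOR and translation control pathway. They were taken by name from the 25785 gene names of the main expression table, and for each gene the RefSeq transcript with the highest mean over the 6 libraries was kept. All 38 had a mean of at least 10 normalized read equivalents, the level required for testing, and were among the 15717 genes tested. The libraries were made from 2000 ng of total RNA of whole hippocampus from C57B1/6J mice (the strain as the labels spell it) at postnatal day 30. The wild-type group and the PTCHD1 mutant group held 3 libraries each, and no treatment is named for either. The titles of the mutant libraries carry the tag ko, read here as knockout, and the labels describe the mutation no further. The labels do not give the sex, litter or lane of a library. They do not state that the libraries came from separate animals, so a p-value here reflects how far these libraries scatter, which may be technical.

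Insulin and related growth factors bind receptors at the cell surface, whose adaptor proteins recruit PI3K, a lipid kinase that brings the kinases PDK1 and AKT to the membrane. AKT inhibits the kinase GSK3 and the TSC complex, and this releases the small GTPase Rheb to activate mTOR, a kinase that works in a raptor complex, which controls translation and autophagy, and in a rictor complex, which acts on AKT. In hippocampal neurons the pathway is known for local protein synthesis at synapses and for forms of synaptic plasticity that need new protein, and its mutations in humans cause disorders with epilepsy, overgrowth or autism.

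Values are normalized read equivalents, that is, the authors' normalized coverage of a transcript divided by a read length of 42 bases inferred from the steps of the values. Summed over the transcript kept for each gene, the libraries held between 12450701 and 23749087 read equivalents before normalization. Ptchd1 checked the genotype label and stood at 323, 389 and 411 in wild-type replicates 1, 2 and 3 and at 181, 150.0 and 130.0 in mutant replicates 1, 2 and 3. It was the single gene past the adjusted threshold of 0.05 (log2 change -1.28 ± 0.14, SE, limma with Benjamini-Hochberg adjustment, adjusted p = 0.0342), and this call was lost when wild-type replicate 1 or 3 or mutant replicate 2 was left out. Markers of dentate, CA1 and CA3 neurons were present in every library, as were those of glia and vessels, and no marker was at 0. Of 6 neuronal markers, 5 had their lowest mutant value above their highest wild-type value, beside 12.3% of all genes tested. The summed level of the 6 ran from 94013 to 95953 across the wild-type libraries and from 102644 to 113060.1 across those of the mutants. Markers of the hippocampal neuron types did not share this direction. Of 6 dentate markers, 0 were higher and 1 lower in all mutant libraries than in any wild-type library. For CA1 these counts were 2 and 0 of 5, and for CA3 1 and 1 of 5, beside 12.3% and 12% of all genes. Of 10 oligodendrocyte markers, 3 were lower in all mutant libraries than in any wild-type library, beside 12% of all genes tested, and 0 were higher. Oligodendrocyte markers summed to between 80129 and 92726 in wild type, and to 67202, 83370.5 and 80706.6 in mutant replicates 1, 2 and 3. Microglia markers summed to between 4706 and 4949 in wild type and between 4202 and 4641 in mutants. Singly, 1 of the 6 was lower in all mutant libraries than in any wild-type library and 0 were higher. The sums of astrocyte and endothelium markers overlapped. Choroid plexus markers summed to 87399.8 in wild-type replicate 1 and 34465 in wild-type replicate 3, against between 4856 and 6784 in the other 4 libraries. Wild-type replicate 2 and mutant replicate 1 stood apart in a further way. Across 15449 genes with a known GC content, a library's deviation from the gene mean had a Spearman correlation with transcript GC content of -0.48 in wild-type replicate 2 and 0.43 in mutant replicate 1, and between -0.18 and 0.08 in the others. In RNA of a whole tissue, fewer cells of a type and less RNA per cell cannot be told apart, and the part of these markers in the differences below was not tested.

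The clearest differences were small and mostly upward: both GSK3 kinases, the adaptor Irs2, the S6 kinase Rps6kb2, the autophagy kinase Ulk1, the stress sensor Sesn3, Mtor itself, the PI3K regulatory subunit Pik3r2 and the mTOR inhibitor Tsc2 had higher values in all 3 mutant libraries than in any wild-type library. Rhebl1, a relative of Rheb, was lower in all 3. None of the 38 genes passed the adjusted threshold in limma, where 0% of all genes tested passed upward and 0.00636% downward, 0.00636% in both directions. The lowest adjusted p among them was 0.120, for Gsk3a. Groups did not overlap for 10 of the 38, or 26.3%, against 24.3% of all genes tested, so the share of genes with separated groups was near the background. Their directions were uneven, with 9 higher and 1 lower, where 12.3% of all genes were separated upward and 12% downward. An unadjusted p under 0.05 was likewise reached by 9 higher and 1 lower (limma), beside 9.01% of all genes upward, 9.7% downward and 18.7% in both directions. The log2 change was positive for 25 of the 38, against 46.8% of all genes. The median log2 change was 0.08, against -0.02 over all genes tested, and 0.01 for both after correction of the libraries for transcript GC content and length. With that correction the log2 change fell from 0.17 to 0.02 for Mtor, from 0.16 to 0.04 for Tsc2 and from 0.23 to 0.11 for Pik3r2.

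**Figure D1:**
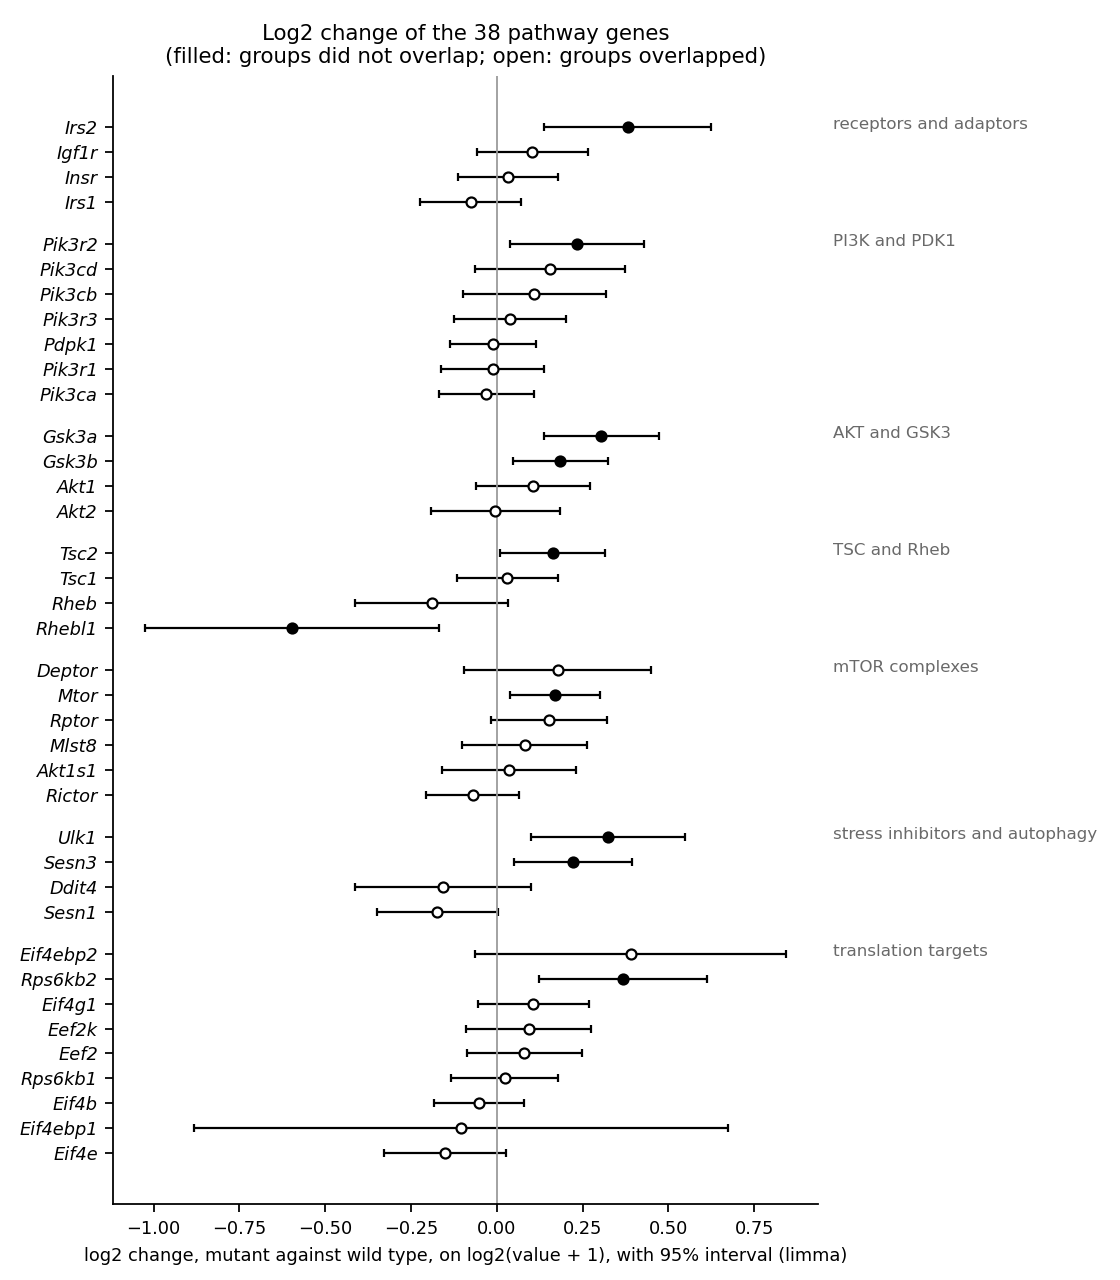
Log2 change of each of the 38 genes between mutant and wild type on log2(value + 1), with the 95% interval of the limma fit, grouped by role; filled points mark genes whose 3 mutant and 3 wild-type values did not overlap. The filled points lie to the right of 0 for 9 genes and to the left for Rhebl1, and the widest interval, from -0.88 to 0.67, is that of Eif4ebp1.

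The 250 bases before the transcription start were read from RefSeq (GRCm38.p6) for 33 of the 38 genes, in 47 windows. They are shown for the gene with the lowest p (Gsk3a), the adaptor with the largest separated difference (Irs2), the kinase that names the pathway (Mtor) and its activator (Rheb). Capitals mark the GC box GGGCGG, a sequence bound by Sp factors, in Gsk3a and Mtor, where it lies on the opposite strand and so reads CCGCCC, and the E-box CACGTG, a sequence bound by Myc, USF and TFEB factors, in Irs2 and Rheb. The Gsk3a window spans chr7:25237852-25238101 on the minus strand, that of Irs2 chr8:11008930-11009179 on the minus strand, that of Mtor chr4:148448332-148448581 on the plus strand and that of Rheb chr5:24842362-24842611 on the minus strand. Each is written from its 5′ end to its 3′ end on the strand of the gene, and a second motif in a window is left in lower case.
Gsk3a promoter: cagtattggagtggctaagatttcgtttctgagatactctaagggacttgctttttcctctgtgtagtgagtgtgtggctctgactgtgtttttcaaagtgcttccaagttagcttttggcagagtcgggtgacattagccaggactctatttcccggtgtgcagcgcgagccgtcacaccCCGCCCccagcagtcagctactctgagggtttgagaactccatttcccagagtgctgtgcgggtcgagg
Irs2 promoter: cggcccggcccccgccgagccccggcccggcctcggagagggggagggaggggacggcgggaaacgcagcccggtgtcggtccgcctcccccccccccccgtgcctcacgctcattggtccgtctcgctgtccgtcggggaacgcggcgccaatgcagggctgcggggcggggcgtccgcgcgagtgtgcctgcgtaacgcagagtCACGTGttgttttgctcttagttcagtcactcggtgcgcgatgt
Mtor promoter: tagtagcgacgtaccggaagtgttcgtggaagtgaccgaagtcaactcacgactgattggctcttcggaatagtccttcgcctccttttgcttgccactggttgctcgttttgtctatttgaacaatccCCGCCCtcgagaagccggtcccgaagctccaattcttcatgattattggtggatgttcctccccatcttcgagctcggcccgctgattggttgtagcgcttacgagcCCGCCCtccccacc
Rheb promoter: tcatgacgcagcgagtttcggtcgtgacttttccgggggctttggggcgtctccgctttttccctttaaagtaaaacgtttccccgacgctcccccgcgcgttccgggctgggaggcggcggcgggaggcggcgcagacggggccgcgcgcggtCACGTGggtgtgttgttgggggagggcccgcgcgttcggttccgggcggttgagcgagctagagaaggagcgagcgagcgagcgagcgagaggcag

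On either strand, CACGTG was in the windows of 7 of the 33 genes (Eef2, Eef2k, Eif4e, Eif4g1, Irs1, Irs2 and Rheb), or 14.9% of their 47 windows, and in 6.02% of 32851 windows of all genes. GGGCGG was in windows of 25 of the 33, or 63.8% of windows, against 32.7% over all genes. These windows were also richer in GC, with a median of 61.6% against 52.4% over all windows, and how far that accounts for the motif counts was not tested. The FoxO core TGTTTAC was found for Akt1 alone, beside 3.17% of all windows. The cAMP response element TGACGTCA (1.55% of all windows) and the EGR1 site GCGTGGGCG (0.536%) were found in 0 of the 47 windows. The genes with an E-box did not share a direction: Irs2 had higher values in the mutants, while the groups of Rheb and Eif4e overlapped with negative log2 changes. A match describes letters in a window and not a bound site.

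Among the receptors and adaptors, only Irs2 had separated groups. Irs2 encodes the adaptor that links the insulin and IGF receptors to PI3K, and it stood at 624, 529.7 and 512 in wild-type replicates 1 to 3 and at 836, 662 and 676 in mutant replicates 1 to 3. Mutant replicate 1 was the highest of the 6 and wild-type replicate 1 came within 38.5 of the lowest mutant value. The means were 555 ± 60.0 and 725 ± 96.3 (SD, n = 3 each), with a log2 change of 0.38 ± 0.11 (SE, adjusted p = 0.135, limma). Its relative Irs1 went from 1176 ± 22.3 in wild type to 1116 ± 47.5 in the mutants, with overlapping groups and a log2 change of -0.08. The insulin receptor Insr (1570.0 ± 68.9 and 1605 ± 56.0) and the IGF receptor Igf1r (1689.9 ± 89.6 and 1817 ± 123) also overlapped between the groups. Their log2 changes were 0.03, with a 95% interval from -0.11 to 0.18, and 0.10, from -0.06 to 0.27.

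PI3K is a dimer of a catalytic and a regulatory subunit, and the transcripts of its subunits differed little between the groups except for Pik3r2. This regulatory subunit stood at 1248, 1260.1 and 1301 in wild type and at 1725, 1385 and 1391 in the mutants. The wild-type values were close together, and mutant replicate 1 lay far above the other mutants. The means were 1269.5 ± 27.6 and 1501 ± 194 (SD, n = 3 each), with a log2 change of 0.23 ± 0.09 (SE, adjusted p = 0.201, limma), which was 0.13 without mutant replicate 1. The regulatory subunits Pik3r1 and Pik3r3 had log2 changes of -0.01 and 0.04. The catalytic subunits Pik3ca, Pik3cb and Pik3cd had log2 changes of -0.03, 0.11 and 0.15, and for each the groups overlapped. Pdpk1, which encodes PDK1, the kinase that activates AKT and S6 kinase, had means of 3928 ± 23.5 (wild type) and 3900.0 ± 110.3 (mutant), with an interval of the log2 change from -0.14 to 0.11.

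Both GSK3 genes had higher values in the mutants, and the AKT genes upstream of them did not separate. Gsk3a, a kinase of glycogen synthase and of many neuronal substrates that AKT inhibits, stood at 1786, 1565 and 1709.9 in wild type and at 2239.8, 2055 and 1957 in the mutants. The groups were 1687 ± 112 and 2084 ± 144 (SD, n = 3 each), with a gap of 171 between the highest wild-type and the lowest mutant value. The log2 change was 0.30 ± 0.08 (SE, adjusted p = 0.120, limma). Gsk3b, its close relative, stood at 5591, 5773 and 5470.1 in wild type and at 6629.5, 6548 and 5978 in the mutants. Mutant replicates 1 and 2 were well above wild type, and replicate 3 lay nearer to it. The log2 change of Gsk3b was 0.19 ± 0.06 (adjusted p = 0.166, limma), and the 95% intervals of the pair, from 0.05 to 0.32 for Gsk3b and from 0.14 to 0.47 for Gsk3a, overlapped. Akt1 stood at 1399.6, 1401 and 1499 in wild type and at 1678, 1530.0 and 1428 in the mutants, where mutant replicate 3 fell among the wild-type values. Akt2, the form best known from insulin action on glucose uptake, stood at 1005, 871 and 956 in wild type and at 1025, 926 and 874 in the mutants, an almost complete overlap. The log2 changes were 0.11, with an interval from -0.06 to 0.27, for Akt1 and -0.00, from -0.19 to 0.18, for Akt2.

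**Figure D2:**
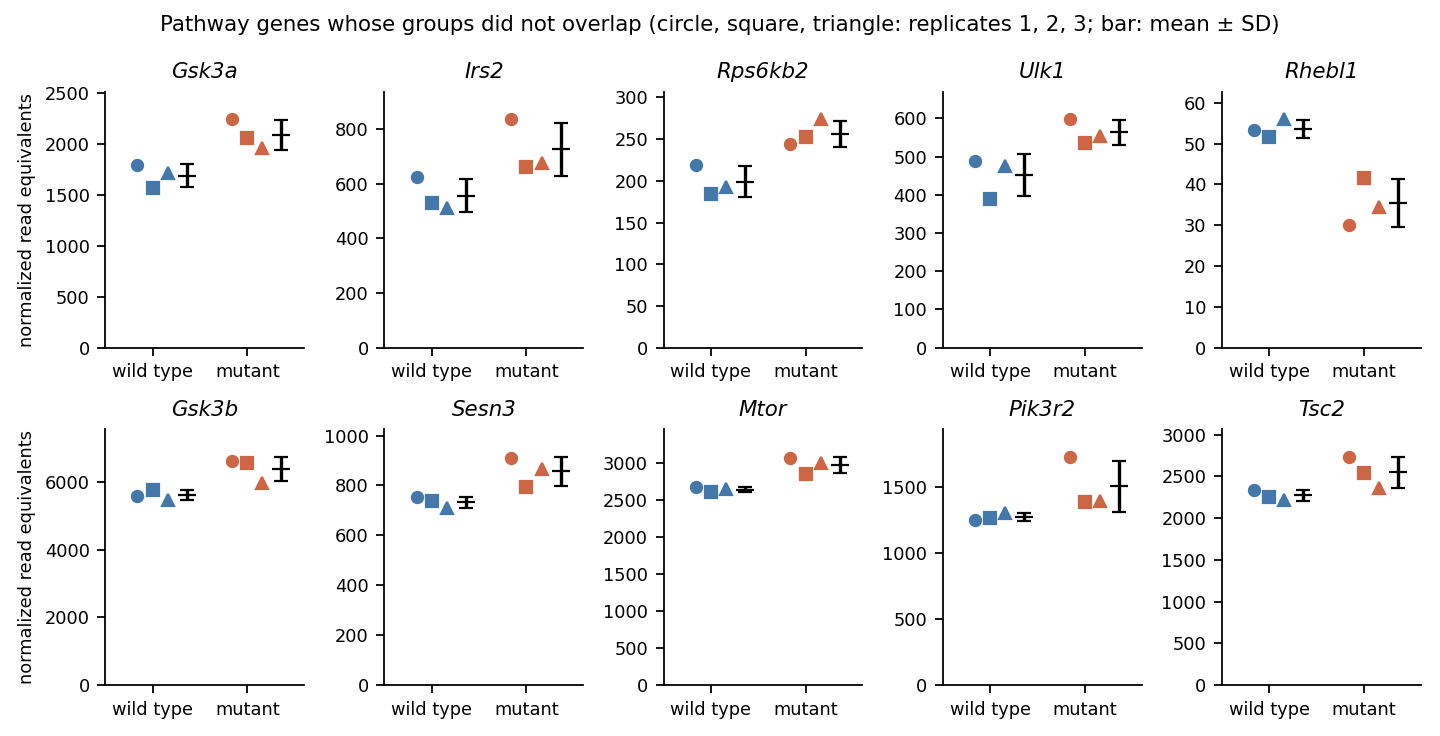
Normalized read equivalents (vertical axis, from 0) of the 10 genes with separated groups in each wild-type (blue) and mutant (orange) library; circles, squares and triangles are replicates 1, 2 and 3, and black bars the mean ± SD (n = 3). Mutant replicate 1 is the highest mutant library for 8 of the 9 genes above wild type, and Rps6kb2 is the exception.

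The TSC complex, which switches Rheb off, and the Rheb pair itself did not share a direction. Tsc2, the subunit that carries the GTPase-activating domain, stood at 2339.7, 2255 and 2218 in wild type and at 2734, 2543 and 2364 in the mutants. The lowest mutant value was 24.2 above the highest wild-type value, and the log2 change was 0.16 ± 0.07 (SE, adjusted p = 0.240, limma). Tsc1, its partner, which stabilises it, stood at 1488, 1469 and 1540.2 in wild type and at 1439.9, 1583 and 1575 in the mutants, so its groups overlapped, with a log2 change of 0.03. Rheb, the activator of mTOR, had means of 1782 ± 155 (wild type) and 1568 ± 212 (mutant), and mutant replicate 3, at 1778, lay within the wild-type range. Its log2 change was -0.19, with an interval from -0.41 to 0.03. Rhebl1, named here after its values were seen because its mean was under 50, stood at 53.5, 51.6 and 56.0 in wild type and at 30.2, 41.6 and 34.6 in the mutants. All mutant values were below all wild-type values, with a log2 change of -0.60 ± 0.19 (adjusted p = 0.153, limma). This was the largest difference in size of the 38, in the gene with the second lowest level per length.

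Of the mTOR complexes, Mtor had separated groups, and the subunits that distinguish the complexes did not. Mtor stood at 2672, 2612 and 2647 in wild type and at 3073, 2852 and 2998 in the mutants. The wild-type libraries lay within 60.2 of each other, and the lowest mutant value was 179.7 above the highest of them. The means were 2644 ± 30.3 and 2974 ± 113 (SD, n = 3 each), with a log2 change of 0.17 ± 0.06 (SE, adjusted p = 0.176, limma). After correction for transcript GC content and length, the log2 change of Mtor was 0.02. Rptor, which encodes raptor and recruits substrates to the complex that controls translation, stood at 1140.2, 1037 and 1201 in wild type and at 1316, 1237 and 1199.7 in the mutants, where mutant replicate 3 fell just under the highest wild-type library. Rictor, the defining subunit of the other complex, stood at 3320.1, 3546 and 3452 in wild type and at 3139.9, 3315 and 3372 in the mutants, where mutant replicate 3 lay within the wild-type range. The log2 changes were 0.15, with an interval from -0.02 to 0.32, for Rptor and -0.07, from -0.20 to 0.06, for Rictor. The shared subunit Mlst8 and the raptor-bound inhibitor Akt1s1 had log2 changes of 0.08 and 0.04. Deptor, an inhibitor bound to mTOR, had one low library, wild-type replicate 2 at 312, while the other 5 lay between 429 and 443. Its log2 change of 0.18 became 0.02 without that library.

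The stress sensors and the autophagy kinase did not share a direction. Ulk1, the kinase that starts autophagy and that active mTOR holds in check, stood at 489, 390.1 and 476 in wild type and at 598, 537 and 555 in the mutants. Wild-type replicate 2 was the lowest of the 6, and the groups were separated by 47.5. The log2 change was 0.32 ± 0.10 (SE, adjusted p = 0.148, limma). Sesn3, a sestrin, one of a family of stress-induced proteins that restrain mTOR, stood at 754, 737 and 709.9 in wild type and at 910.2, 794 and 865 in the mutants. The groups did not overlap, and the log2 change was 0.22 ± 0.08 (adjusted p = 0.173, limma). Sesn1, of the same family, went the other way, from 1402 ± 31.2 in wild type to 1247 ± 126 in the mutants, but mutant replicate 3, at 1391, lay within the wild-type range and the log2 change was -0.17 (adjusted p = 0.271, limma). Ddit4, which encodes the stress-induced mTOR inhibitor REDD1, had overlapping groups of 512 ± 63.6 and 459 ± 55.2.

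Among the translation targets at the end of the pathway, the S6 kinase gene Rps6kb2 alone had separated groups. It stood at 219, 184 and 193 in wild type and at 244, 252 and 274 in the mutants. Here mutant replicate 3 was the highest library and mutant replicate 1 the lowest mutant, unlike the other genes above wild type. The means were 199 ± 18.4 and 257 ± 15.6 (SD, n = 3 each), with a log2 change of 0.37 ± 0.11 (SE, adjusted p = 0.142, limma). Rps6kb1, the S6 kinase best studied in neurons, averaged 1686 ± 102 and 1712 ± 82.2, with overlapping groups. Eif4ebp2, a repressor of the cap-binding factor and the main one in mouse brain, stood at 61.6, 44.0 and 46.2 in wild type and at 81.5, 62.2 and 56.3 in the mutants. Mutant replicate 3 was below wild-type replicate 1, and its log2 change of 0.39 ± 0.21 had an interval from -0.06 to 0.84. Its relative Eif4ebp1 stood at 24.5, 9.86 and 15.5 in wild type and at 12, 14.7 and 17.0 in the mutants, near the level required for testing. Its groups overlapped, and its log2 change of -0.10 had an interval from -0.88 to 0.67, which leaves room for a difference in either direction. The cap-binding factor Eif4e had lower means in the mutants, 2490.1 ± 256 against 2234 ± 80.9, with wild-type replicate 1, at 2197, among the mutant values. The scaffold Eif4g1 and the helicase cofactor Eif4b had log2 changes of 0.11 and -0.05. The elongation factor Eef2 and Eef2k, the kinase that inhibits it, had log2 changes of 0.08 and 0.09, and Eef2 reached its highest value, 14031, in mutant replicate 1, against between 11547 and 12083 in the other 5 libraries.

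Per length of transcript, the elongation factor was far above the rest. Eef2 averaged 3947 normalized read equivalents per kb over the 6 libraries, Eif4g1 1277 and Eif4b 1227, and the ranges of the last pair over the libraries overlapped. Next came Rheb at 939, Gsk3a at 834 and Gsk3b at 722 per kb, again with overlapping ranges between neighbours. Of the kinases, levels were 554 (Akt1), 547 (Pdpk1), 328 (Mtor), 208 (Akt2) and 97.3 per kb (Ulk1), and the PI3K subunits ran from Pik3r1 at 499 to Pik3cd at 84.4 per kb. Levels were lowest for Rps6kb2 at 49.6, Deptor at 48.5, Eif4ebp2 at 41.2, Rhebl1 at 35.3 and Eif4ebp1 at 7.81 per kb. Within pairs of relatives, Rps6kb1 stood at 307 per kb against 49.6 for Rps6kb2, and Rheb at 939 against 35.3 for Rhebl1, in ranges that did not meet.

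**Figure D3:**
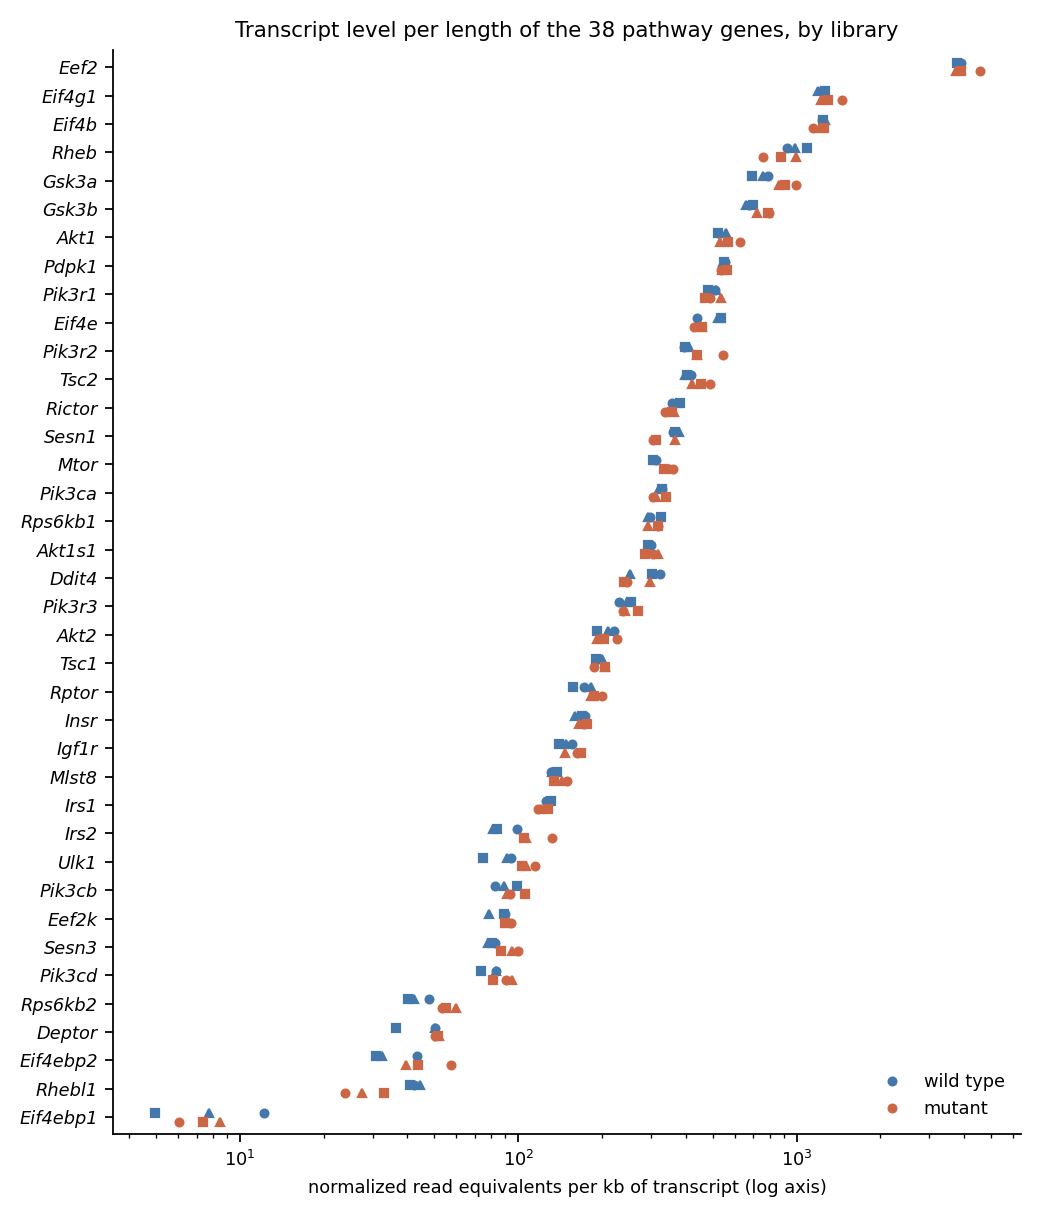
Normalized read equivalents per kb of transcript (log axis) of the 38 genes in the 6 libraries, ordered by the mean over all of them; blue symbols are wild type, orange symbols mutants, and circles, squares and triangles replicates 1, 2 and 3. Eef2, at 3947 per kb, and Eif4ebp1, at 7.81 per kb, are the ends of the range. The spread between libraries is small beside that range, but the values of many neighbours in the order overlap.

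For 23 of the 38 genes the table held 1 transcript row, and for 15 it held several, which share coverage and are not independent. In most of the 15 the lowest row was at least 94.9% of the highest, and in Akt1s1 and Pik3r1 it was 74.4% and 85.6%. The exceptions were Rps6kb1, whose lowest row held 25.4% of the level of the highest, and Pdpk1, whose lowest held 30.5%. That Pdpk1 row stood at 1175, 1076 and 1175 in wild type and at 1316, 1249 and 1181 in the mutants. All its mutant values were above all wild-type values by a narrow margin, while the other Pdpk1 rows had overlapping groups. The lowest Rps6kb1 row averaged 406 ± 26.9 and 458 ± 85.1, with mutant replicate 1 at 554 and the groups overlapping. No test was run on these rows.

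The differences varied with the GC content of the transcript, in these genes and in all others. Across the 38 genes the Spearman correlation of log2 change with GC content was 0.42, and across all genes with a known GC content it was 0.36. Genes are not independent replicates, and all points come from the same 6 libraries. The 19 genes at or above the median GC content had a median log2 change of 0.15 and the 19 below it -0.01. Of the 9 genes above wild type, 7 were in the GC-rich set, with Gsk3b and Sesn3 in the other. After each library was corrected for transcript GC content and length, the correlation across the 38 genes was 0.12, and 6 of the 38 were higher and 2 lower at an unadjusted p under 0.05 (limma), where 14.7% of all genes passed in either direction. The 6 were among the 9 above wild type, and the 2 were Rhebl1 and Irs1. The log2 change of Gsk3a became 0.23, of Irs2 0.23, of Rps6kb2 0.26, of Ulk1 0.18, of Gsk3b 0.16 and of Sesn3 0.21. Mtor went from 0.17 to 0.02, Tsc2 from 0.16 to 0.04 and Pik3r2 from 0.23 to 0.11. Rhebl1 went from -0.60 to -0.56. Genes with overlapping groups moved too: Irs1 went from -0.08 to -0.17, Rptor from 0.15 to 0.00, Pik3cd from 0.15 to 0.04, Eif4e from -0.15 to -0.04, Rheb from -0.19 to -0.08 and Rps6kb1 from 0.02 to 0.15. Without wild-type replicate 2 and mutant replicate 1, the libraries with the strongest GC trends, the log2 changes were 0.20 for Gsk3a, 0.24 for Irs2, 0.35 for Rps6kb2, 0.18 for Ulk1, 0.18 for Gsk3b, 0.18 for Sesn3, 0.14 for Mtor, 0.12 for Pik3r2 and 0.11 for Tsc2.

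**Figure D4:**
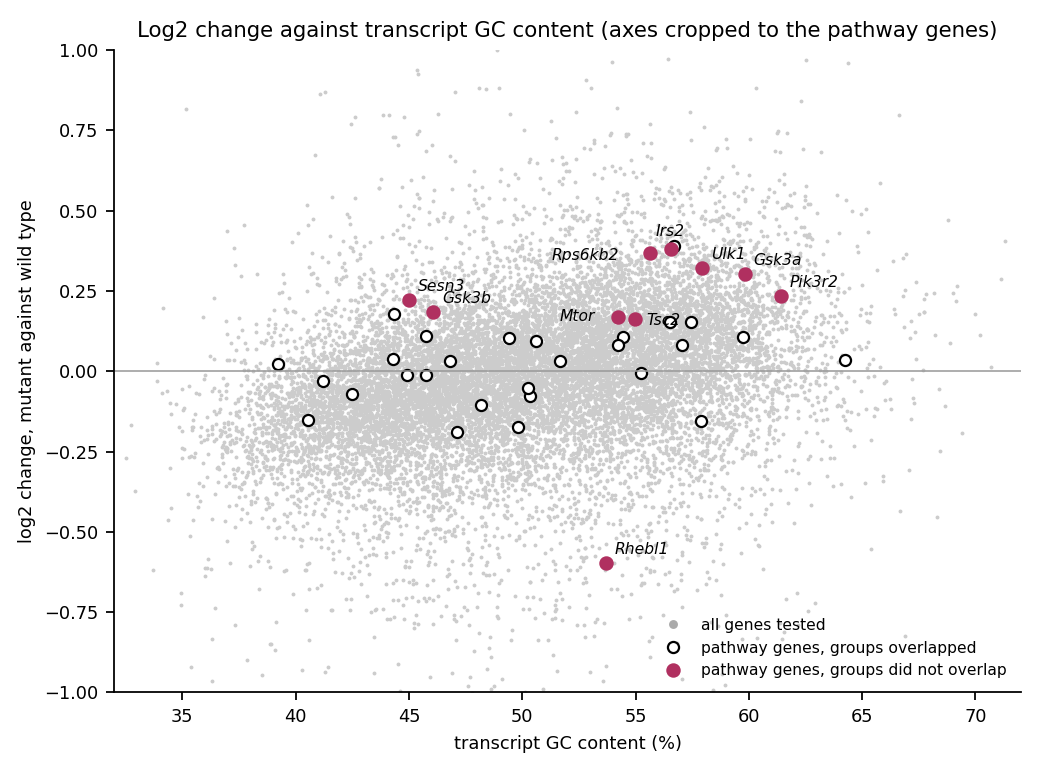
Log2 change (vertical axis) against transcript GC content in percent (horizontal axis) for all genes tested (grey) and the 38 genes (open, groups overlapped; filled, groups did not overlap). The cloud of all genes tilts upward, with a Spearman correlation of 0.36, and most of the filled genes above 0 lie in its GC-rich part.

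**Figure D5:**
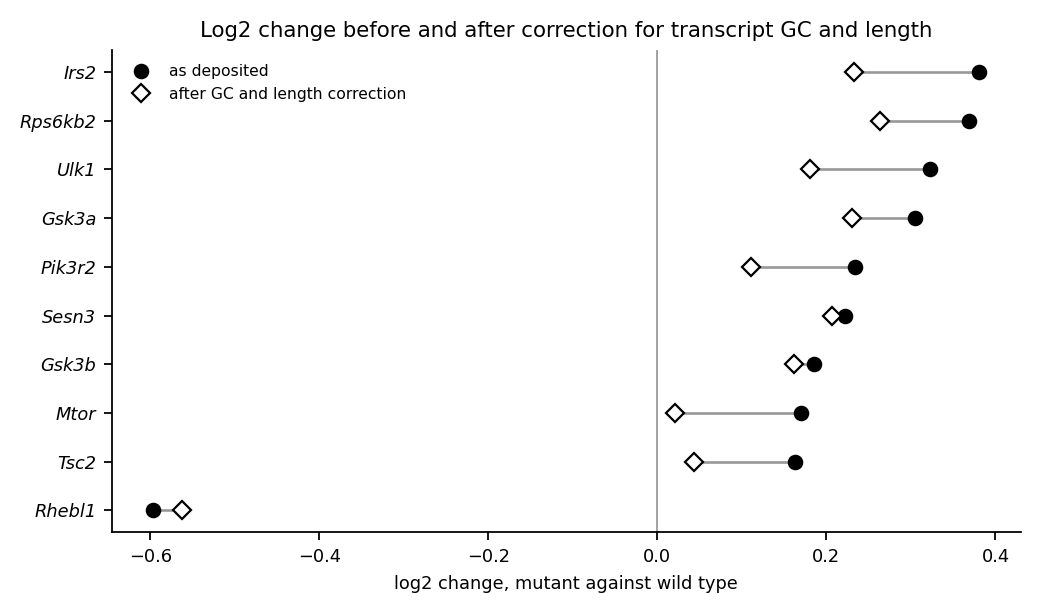
Log2 change of the 10 genes with separated groups as deposited (filled circles) and after each library was corrected for transcript GC content and length (open diamonds). Mtor moves from 0.17 to 0.02 and Tsc2 from 0.16 to 0.04, whereas Sesn3, Gsk3b and Rhebl1 move little.

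The authors' own p-values, from the authors' deposited table, were less strict. Adjusted over the same 15717 genes, they called 4 of the 38 at 0.05, all higher in the mutants: Gsk3a (adjusted p = 0.00226), Irs2 (0.00905), Gsk3b (0.0305) and Ulk1 (0.0351). They called 4.57% of all genes upward, 3.23% downward and 7.8% in both directions, so 4 of 38 upward was 10.5% beside 4.57%. The authors' deposited table of ontology terms for genes higher in the mutants named 8 of the 38: Gsk3a, Gsk3b, Irs2, Mtor, Pik3r2, Rps6kb2, Sesn3 and Ulk1. In that table the insulin receptor signaling pathway held 10 genes, among them Gsk3a, Irs2, Mtor and Pik3r2, with a fold enrichment of 1.71 and a corrected p of 1, and the regulation of translation held 28, among them Mtor and Rps6kb2, with a fold enrichment of 2.57 and a corrected p of 0.0187. The authors' deposited table for genes lower in the mutants named 0 of the 38. In the authors' deposited table for lower genes, the insulin receptor signaling pathway held 11 genes, with a fold enrichment of 2.25, and the regulation of TOR signaling held 7, with a fold enrichment of 3.39, both with a corrected p of 1. The term translational initiation in the authors' deposited table held 30 genes, with a fold enrichment of 4.23 and a corrected p of 3.87e-07. These lists were chosen by the authors on the same libraries and are not independent evidence.

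Genes that neighbour the 38 in the pathway also differed in direction, and none of those named below passed the adjusted threshold in the limma fit of all 6 libraries with equal weight. The genes named were chosen for separated groups and low p in these same libraries, so counts of them past a threshold are not independent evidence. With library weights 7 of them passed it, Sgk3 (adjusted p = 0.0283, limma), Gatsl2, Rraga, Eif4g3, Eif3b, Eif3m and Eef1b2. That setting called 462 genes upward and 343 downward among the 15717 tested. Sgk3 also passed without wild-type replicate 2 and mutant replicate 1 (adjusted p = 0.0372, limma). By the authors' p-values from the authors' deposited table, adjusted as above, Sgk3 (0.000330), Eef1a2 (0.00279), Eif4g3 (0.00365), Gatsl2 (0.00590), Fnip1 (0.0214), Rraga (0.0302), Eif3b (0.0303) and Foxo3 (0.0326) were under 0.05. Those p-values called 7.8% of all genes in both directions. The counts of separated genes in the lists that follow are read beside 12.3% of all genes upward, 12% downward and 24.3% in both directions. Among further genes of PI3K and AKT signalling, Foxo3, a transcription factor that AKT keeps out of the nucleus, stood at 413, 311 and 383 in wild type and at 519, 469 and 432 in the mutants. Sgk3, a kinase related to AKT, stood at 463, 357 and 362 in wild type and at 265, 275 and 229.8 in the mutants, a wide gap with a log2 change of -0.61 ± 0.12 (SE, adjusted p = 0.109, limma). Phlpp2, a phosphatase of AKT, was separated upward (log2 change 0.20), and Prr5l, which binds the rictor complex, downward (-0.25).

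Among genes by which amino acids and lysosomes act on mTOR, the GTPase Rraga, which carries the amino acid signal to raptor, had means of 430.2 ± 12 (wild type) and 532 ± 29.4 (mutant) (log2 change 0.30, adjusted p = 0.129, limma). Gatsl2, a relative of the arginine sensor, was also separated upward, with a log2 change of 0.33. Fnip1, a partner of folliculin, was separated downward, with -0.23. Of 10 AMPK subunits and kinases, 30% were separated, beside 24.3% of all genes: Prkab2 and Strada upward and the catalytic subunit Prkaa1 downward, from 1303 ± 48.3 to 1160.2 ± 34.7. Of 12 genes of autophagy initiation, 16.7% were separated, below the 24.3% of all genes, with Ambra1 upward and Pik3c3 downward at log2 changes of 0.21 and -0.12.

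Among translation factors beyond the 38 genes, paralogs and subunits of one factor differed in direction. Of 16 genes of the eIF4 group, 4 were separated upward, including the scaffold Eif4g3 (3165 ± 243 and 3870.2 ± 293), the cap-binding relative Eif4e2 and the kinase Mknk2, and Paip1 was separated downward. These were 31.2% of the list, beside 24.3% of all genes, and the median over the list was -0.04. Of 29 other initiation factors, 3 were separated upward and 4 downward, in all 24.1% beside 24.3% of all genes. Among them the eIF3 subunits Eif3a and Eif3b were separated upward, with log2 changes of 0.15 and 0.22, and Eif3e and Eif3m downward, with -0.24 and -0.27. After the GC and length correction the downward pair stood at -0.01 and -0.10 and the upward pair at 0.19 and 0.16. Of 10 genes of the integrated stress response, the kinase Eif2ak4 alone was separated, upward, or 10% beside 24.3%. Of 14 elongation and termination factors, 1 was separated upward and 3 downward, or 28.6%, near the 24.3% of all genes. Eef1a2, the form of the elongation factor used by neurons, stood at 8145, 7462 and 8169.8 in wild type and at 12278, 9774 and 8782 in the mutants, whereas Eef1b2, an exchange factor subunit, stood at 1391, 1643 and 1567 in wild type and at 828, 1172 and 1323 in the mutants. Mutant replicate 1 was the extreme library in both. Of the 6 neuronal markers given above, 5 were also separated upward, while markers of dentate, CA1 and CA3 neurons did not share a direction. The part of these markers in the Eef1a2 difference was not tested. Of 11 relatives of S6 kinase and its substrate, 27.3% were separated, near the 24.3% of all genes: Rps6ka2 and Rps6kl1 upward and Rps6 downward, from 193 ± 10.9 to 144 ± 16.3. Rps6 has processed copies elsewhere in the genome, so its values are uncertain where reads could be split between them.

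The spread between libraries set what could be seen. The 95% interval of the log2 change lay within a 1.5-fold difference in either direction for 33 of the 38 genes. For 3 libraries against 3, exact permutation of 1 gene's values gives a p of 0.1 at best. A limma p below that rests on its model of the spread, which is drawn in part from other genes.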

How the data were processed

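Total RNA of whole hippocampus was depleted of ribosomal RNA with Ribo-Zero, and strand-specific dUTP libraries were sequenced from one end, per the labels' protocols. GSNAP, DESeq2 and the mm9 build are named in the submitters' processing notes. Their versions, the counting, the use of strand and the handling of reads with several positions are not stated in any source used here. The deposited main table holds 35477 transcript rows and 6 columns of normalized signal made by the authors. All values of a library are whole multiples of a library-specific step (100.0% within 0.01 of a step) and pile up at 42, 84 and 126, so the signal was read as base coverage divided by a size factor; no source states this, and a count model was therefore not run. The table also holds the authors' unadjusted p-value and a signed score per transcript, as deposited. The ontology tables give, as deposited by the authors and without a header, a p-value, corrected p-values, a fold enrichment (ratio) and a count of genes per term; the less strict corrected value is printed. Other deposited tables were not used here, and 0 per-sample columns were left out.

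The genotype label set the groups, and replicates were numbered by accession, which pairs nothing. Signal was divided by 42 and 1 transcript per gene was kept. Genes with a mean of at least 10 were fitted on log2(value + 1), a scale that compresses low genes. The fit used limma 3.58.1 in R 4.3.3 (lmFit, eBayes with trend, two-sided, Benjamini-Hochberg over 15717 genes, threshold 0.05). It was first run on simulated data with a dispersion shared by all genes and no GC trend or difference in cell content between libraries. That check therefore does not cover such features of the real libraries. "Separated" or "not overlapping" means that the 3 values of one group all lie above the 3 of the other. GC content and length came from GENCODE M21 transcripts matched by RefSeq identifier (98.3% of genes, all 38 described), and each library was corrected by a spline on both, with 5 degrees of freedom for each. Promoter windows came from the RefSeq table of GRCm38.p6; motifs were searched on both strands. The files' build differs, and no coordinates were converted. Values in every library are given for genes with separated groups and a mean of at least 50, up to 14 by lowest p, and for the pairs and complexes of relatives named; from each other list, up to 4 genes by lowest p under the same rule. Some genes and list totals under this rule are not reported here. The members, lists and rules were chosen with earlier results of these data known. Pseudocounts, filters, scalings, transcript choice, library weights, the correction and left-out libraries were tried as alternatives.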

Additional observations from a re-analysis of the deposited data

How the results depend on the processing

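No paired analysis was possible because the labels give the groups no shared replicate numbers. Over 16 refits, 26 of the 38 genes kept the sign of their log2 change. The 0 genes past the adjusted threshold upward and 1 downward became 462 and 343 with library weights, 18 and 92 without wild-type replicate 2 and mutant replicate 1, 718 and 508 with the authors' p-values, 2 upward with the GC and length correction, 0 downward with quantile normalization, and between 0 and 21 upward and between 0 and 36 downward with 1 library left out. The 38 genes had 0 past the threshold, 3 with library weights (Gsk3a, Irs2 and Rps6kb2) and 4 with the authors' p-values. The 9 separated upward became between 11 and 15 with 1 library left out, where fewer values separate more readily by construction. The 1 separated downward became 0 with a mean of at least 50, 3 with quantile normalization, 3 with the GC and length correction, 2 without both libraries and between 1 and 5 with 1 left out. Their median of 0.08 became 0.0135 with the GC and length correction, 0.0487 without both libraries, and between 0.0462 (without mutant replicate 1) and 0.0886 with 1 library left out. The log2 change of Ptchd1, with an adjusted p of 0.0342 (limma), lost its call under no filter (adjusted p = 0.219), quantile normalization (0.0556) and without wild-type replicate 1 (0.0644), wild-type replicate 3 (0.371) or mutant replicate 2 (0.223). The cause of these changes was not tested.

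Genes whose log2 change reversed lay between -0.10 (Eif4ebp1) and 0.11 (Eif4g1) in the fit reported. With the GC and length correction it was -0.00904 for Insr, 0.0163 for Pik3ca, -0.0767 for Tsc1, -0.0365 for Akt1s1 and -0.00478 for Eif4g1. With library weights it was 0.00848 for Pik3ca, 0.00766 for Pdpk1 and 0.0127 for Eif4ebp1. It was 0.00772 for Pdpk1 with the mean of its transcripts and 0.00773 for Akt2 with quantile normalization. With 1 library left out, or wild-type replicate 2 and mutant replicate 1 together, it ran from -0.00358 to 0.0583 for Insr and from -0.0744 to 0.00635 for Pik3ca. The range was -0.0667 to 0.0320 for Pik3r1, -0.0147 to 0.103 for Pik3r3, -0.0338 to 0.00479 for Pdpk1, -0.124 to 0.0478 for Akt2, -0.00858 to 0.0717 for Rps6kb1, -0.410 to 0.205 for Eif4ebp1 and -0.0167 to 0.138 for Eef2.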
